A study of Mus musculus with 6 samples.

Results

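E proteins are basic helix-loop-helix transcription factors, and Id proteins are their dimerization inhibitors. The 6 mouse genes described here are the inhibitor genes Id1, Id2 and Id3 and the E protein genes Tcf3 (E2A), Tcf4 (E2-2) and Tcf12 (HEB). They were taken by gene symbol from a deposited table of read counts with 24047 rows and from a deposited table of FPKM values with 24043 rows. All 6 were present in both.

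E proteins bind E-box DNA as dimers with each other or with tissue-specific partners. Id proteins carry the helix-loop-helix but no basic DNA-binding region, so an E protein held by an Id protein cannot bind DNA. In T cells E proteins act from thymic commitment onward, T cell receptor signals raise Id3 during thymic selection, and peripheral T cells keep Id2 and Id3 as brakes on E protein activity. Id3 has been described with naive, memory and follicular helper states, and Id2 with effector states.

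RNA came from Th0 effector CD4 T cells of 7-week-old mice of strain B6.129. The 3 libraries labelled Srsf1-cKO carry Srsf1-flox/flox and dLck.Cre, a Cre driven by the distal Lck promoter and so acting late in T cell development, and the 3 libraries labelled WT are wild type. The labels leave unsaid whether WT mice carried Cre or a floxed allele. Naive CD4 T cells from spleens of both genotypes were cultured for 72 h with anti-CD3 (0.5 µg/mL) and anti-CD28 (1 µg/mL), then for 4 h with PMA (100 ng/mL) and ionomycin (1 µM). Every level below is thus one after restimulation.

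Libraries held 7781283 to 10184268 gene counts. Srsf1 itself, the targeted gene, stood at 514 ± 39.1 CPM in the libraries labelled Srsf1-cKO and at 495 ± 42.1 CPM in WT libraries (SD, n = 3 each; edgeR adjusted p = 0.780). CPM are library-scaled counts, with TMM factors applied to the totals. Because the whole-gene Srsf1 count does not separate the groups, they are called by their labels throughout. The label CD4 T cell was checked on 10 T cell markers, which summed to 2619 to 3667 CPM in the libraries labelled Srsf1-cKO and 2836 to 3114 CPM in WT libraries. Of these, 2 rose in the libraries labelled Srsf1-cKO and 8 were not called, where 8.9% of all genes tested were called higher. The 2 were Trat1 (log2 fold change 1.04, edgeR adjusted p = 0.0158) and Cd3g (0.72, 0.0452). Cd4 averaged 389 CPM in the libraries labelled Srsf1-cKO and 465 CPM in WT libraries, whereas Cd8a averaged 0.517 CPM in the libraries labelled Srsf1-cKO and 0.416 CPM in WT libraries. Cd8b1, the other CD8 chain gene, averaged 19.95 CPM in the libraries labelled Srsf1-cKO and 30.4 CPM in WT libraries.

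Upstream sequences are shown for Id3 and Tcf12, the 2 genes that passed the test below, and for Id2, the inhibitor closest to Id3 in level. Each is the 250 bases before the annotated start, 5′ to 3′ on the gene's strand, from RefSeq on build GRCm38.p6. Windows of 4 of the 6 genes, Id2, Id3, Tcf3 and Tcf12, were examined, with 3 starts for Tcf12, of which the first is shown. Those of Id1 and Tcf4 were not examined. The counts themselves were made on mm9. Capitals mark the E-box letters CAGCTG or CAGGTG on either strand.
Id3, chr4:136143572-136143821, plus strand: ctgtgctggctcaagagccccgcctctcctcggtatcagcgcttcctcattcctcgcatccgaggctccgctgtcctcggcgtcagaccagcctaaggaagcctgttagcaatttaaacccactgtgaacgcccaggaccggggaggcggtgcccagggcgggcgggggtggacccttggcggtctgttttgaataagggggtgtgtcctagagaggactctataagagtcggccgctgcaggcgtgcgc
Id2, chr12:25096093-25096342, minus strand: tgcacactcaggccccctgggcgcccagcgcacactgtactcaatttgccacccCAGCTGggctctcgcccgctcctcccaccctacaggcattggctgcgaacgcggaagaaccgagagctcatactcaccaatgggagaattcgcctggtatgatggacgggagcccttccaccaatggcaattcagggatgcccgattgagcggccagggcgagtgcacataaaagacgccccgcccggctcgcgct
Tcf12, chr9:72111820-72112069, minus strand: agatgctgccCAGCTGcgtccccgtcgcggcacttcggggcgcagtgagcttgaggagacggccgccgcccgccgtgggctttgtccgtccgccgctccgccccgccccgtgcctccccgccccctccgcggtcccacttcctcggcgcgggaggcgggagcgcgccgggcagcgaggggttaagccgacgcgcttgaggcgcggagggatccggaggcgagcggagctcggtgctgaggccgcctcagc

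CAGCTG occurred once upstream of Id2, 196 bases before the start, and once in the Tcf12 window shown, 240 bases before the start. The other 2 Tcf12 windows held neither CAGCTG nor CAGGTG. The Id3 window held neither E-box form and no CANNTG of any kind. Over 32817 upstream windows of the same length, 27.7% held CAGCTG or CAGGTG, 13% held CAGCTG, and 66.2% held CANNTG. None of the 4 genes' windows held the EGR letters GCGTGGGCG or GCGGGGGCG, which 3.06% of all windows held. These are matches of letters in short windows, and binding was not measured. In the GENCODE M21 annotation no exon of the 6 genes overlapped an exon of another gene on either strand.

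Of the 6 genes, all of which passed the filter on low counts, 2 fell in the libraries labelled Srsf1-cKO and 4 were not called. Id3 fell by a large margin and Tcf12 by a small one. edgeR's quasi-likelihood test called 1923 of 10454 genes at a Benjamini-Hochberg adjusted p under 0.05, or 18.4%, with 8.9% higher and 9.5% lower. CPM of the groups did not overlap for 2 of the 6 genes, Id3 and Tcf12, against 39.4% of all genes tested. The median log2 fold change of all tested genes was 0.01, and all fold changes are libraries labelled Srsf1-cKO over WT.

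**Figure D1:**
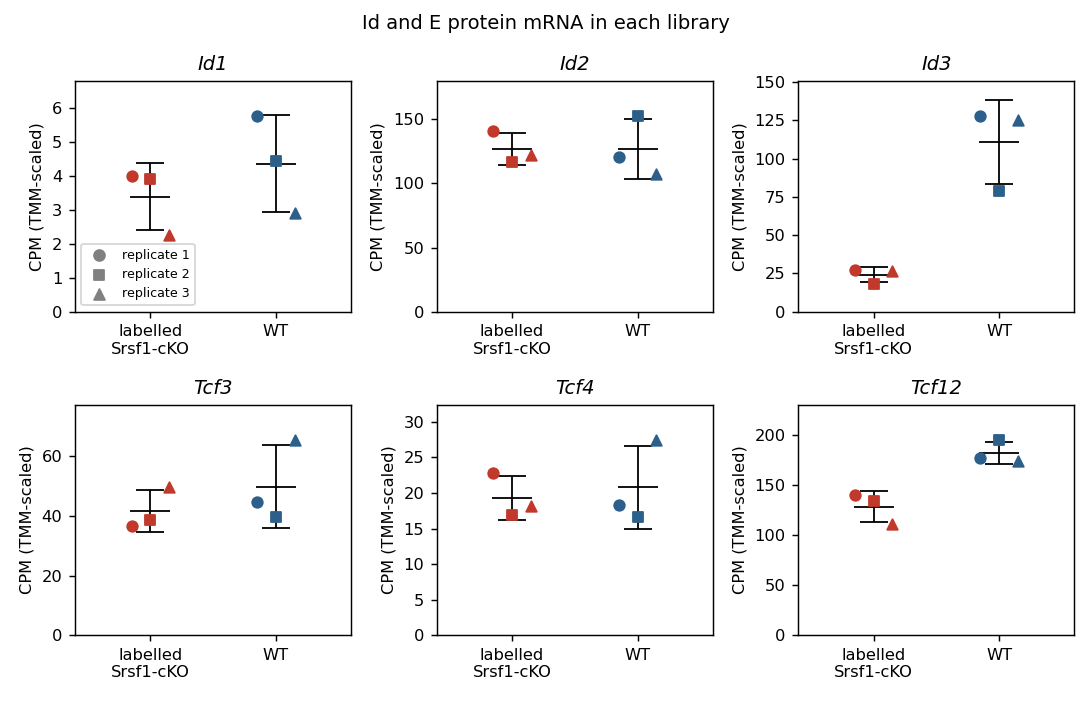
TMM-scaled CPM (vertical axis, from 0) of the 6 genes in each library, labelled Srsf1-cKO in red and WT in blue, with marker shape for the replicate number and bars for mean ± SD (n = 3). Id3 lies between 18.4 and 27.2 CPM in the libraries labelled Srsf1-cKO and between 79.1 and 127.7 CPM in WT libraries, and Tcf12 also does not overlap.

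Id3, which encodes an inhibitor induced by antigen receptor signals, was counted 252, 165 and 285 times in the libraries labelled Srsf1-cKO, and 1155, 608 and 951 times in WT libraries. After scaling this was 27.2, 18.4 and 26.8 CPM in the libraries labelled Srsf1-cKO, against 127.7, 79.1 and 125.5 CPM in WT libraries. The 2 groups did not overlap, and the lowest WT library, replicate 2, still stood well above the highest library labelled Srsf1-cKO. Id3 averaged 24.1 ± 4.96 CPM in the libraries labelled Srsf1-cKO and 110.8 ± 27.5 CPM in WT libraries (SD, n = 3 each). On the log2 scale it fell by 2.20 (SE 0.23), to a ratio of 0.218, and the 95% confidence interval ran from -2.72 to -1.67. The edgeR adjusted p was 0.00347. By adjusted p Id3 ranked 9th from the smallest of the 10454 genes, the lowest rank of a tie that it shared with other genes. It had the 42nd lowest log2 fold change. An exact two-sided permutation test of its 6 values gave p = 0.1, the smallest that 3 against 3 libraries allow. In bulk RNA, fewer cells that express Id3 and less Id3 RNA per cell cannot be told apart.

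Id3 was also lower on the FPKM scale, which adjusts for transcript length. FPKM were 26.3, 18.7 and 26.3 in the libraries labelled Srsf1-cKO, against 112.4, 74.2 and 115.9 in WT libraries. limma on log2(FPKM + 1) gave a log2 difference of -2.03 (SE 0.21, adjusted p = 0.00456), where it called 18.7% of 9617 genes. On that scale the median of all genes was 0.10 and 65.9% of calls were higher, against 48.4% for counts, so differences in FPKM are read relative to 0.10. Id3 passed under all 16 alternatives, of which the FPKM fit is 1 and the rest use counts, with log2 fold changes of -2.45 to -2.03 and a highest adjusted p of 0.0330, without WT replicate 1.

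Id2 encodes the inhibitor that sits beside Id3 in peripheral T cells, and it showed no called difference. Its CPM were 140.7, 117.1 and 122.1 in the libraries labelled Srsf1-cKO, and 120.9, 152.4 and 107.4 in WT libraries. The groups overlapped fully, the libraries labelled Srsf1-cKO lying within the WT range. Id2 averaged 126.6 ± 12.4 CPM in the libraries labelled Srsf1-cKO and 126.9 ± 23.1 CPM in WT libraries (SD, n = 3 each). Its edgeR estimate on the log2 scale was -0.0035 (SE 0.16, adjusted p = 0.991), and the 95% confidence interval reached from -0.36 to 0.35. The interval of Id3 ends at -1.67, below that of Id2, though the difference between the genes' changes was not tested.

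Id1, an inhibitor better known from endothelial and stem cells, was scarce. It had 37, 35 and 24 counts in the libraries labelled Srsf1-cKO, and 52, 34 and 22 counts in WT libraries. These came to 3.39 ± 0.982 CPM in the libraries labelled Srsf1-cKO and 4.36 ± 1.42 CPM in WT libraries (SD, n = 3 each), and the groups overlapped. Its log2 fold change of -0.38 (SE 0.35, edgeR adjusted p = 0.477) had the widest interval of the 6 genes, -1.18 to 0.42.

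Tcf12 encodes HEB, the E protein that works with E2A in T cell development, and it was the most abundant E protein mRNA. Its counts were 1297, 1200 and 1185 in the libraries labelled Srsf1-cKO, and 1605, 1500 and 1322 in WT libraries. In CPM these were 140.1, 133.9 and 111.2 in the libraries labelled Srsf1-cKO, against 177.4, 195.1 and 174.5 in WT libraries. No library labelled Srsf1-cKO reached the lowest WT value. Means were 128.4 ± 15.2 CPM in the libraries labelled Srsf1-cKO and 182.3 ± 11.2 CPM in WT libraries (SD, n = 3 each). Tcf12 fell by 0.51 on the log2 scale (SE 0.13), to a ratio of 0.704, with a 95% confidence interval of -0.81 to -0.21. The edgeR adjusted p was 0.0322, and the exact permutation p of the 6 values was 0.1.

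The call on Tcf12 lay near the threshold, while its direction was negative under all 16 alternatives (-0.57 to -0.40). It passed in 9 of them. With library-size scaling alone, where the median of all genes is 0.11, it was -0.41 with edgeR adjusted p = 0.0607. In FPKM it was 22.9, 23.3 and 18.6 in the libraries labelled Srsf1-cKO, against 26.8, 31.96 and 27.6 in WT libraries (limma log2 difference -0.40, adjusted p = 0.0792). Leaving out WT replicate 1 (edgeR adjusted p = 0.101) or 2 (0.0626) also ended the call. So did leaving out replicate 1 (0.0567), 2 (0.109) or 3 (0.0587) of the libraries labelled Srsf1-cKO.

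Tcf3, the gene of E2A, was not called. Its CPM were 36.6, 38.6 and 49.8 in the libraries labelled Srsf1-cKO, and 44.4, 39.4 and 65.3 in WT libraries. The groups overlapped, and replicate 3 was the highest library of each group. edgeR put the log2 ratio at -0.25 (SE 0.22, adjusted p = 0.434), and its 95% confidence interval spanned -0.74 to 0.24. Tcf3 gives rise to alternative splice products with different DNA-binding exons, and counts over the whole gene do not separate them.

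Tcf4 encodes E2-2, known for its role in plasmacytoid dendritic cells and B cells, and was low in length-scaled terms. Its CPM were 22.8, 16.9 and 18.2 in the libraries labelled Srsf1-cKO, and 18.4, 16.6 and 27.5 in WT libraries, with full overlap. edgeR put the log2 ratio at -0.11 (SE 0.23, adjusted p = 0.764), with 95% confidence limits at -0.62 and 0.41. The plasmacytoid marker Siglech had 0 counts in all 6 libraries.

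**Figure D2:**
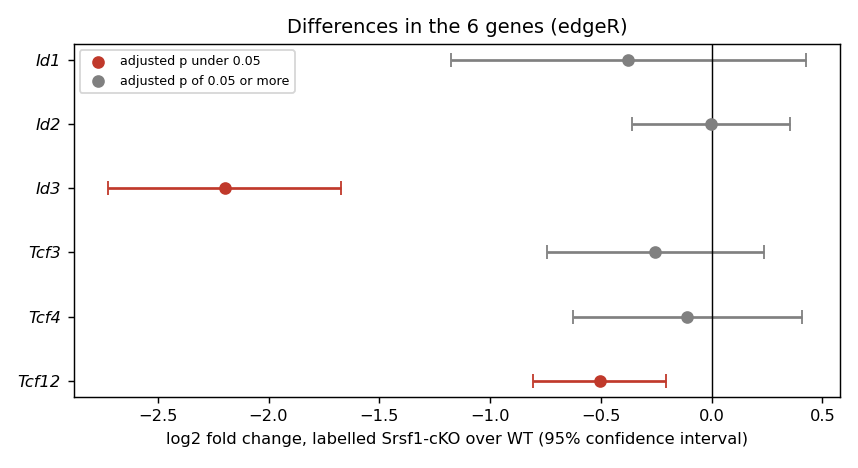
Log2 fold change of each gene, libraries labelled Srsf1-cKO over WT (horizontal axis), with its 95% confidence interval from edgeR. Id3 at -2.20 and Tcf12 at -0.51 have intervals below 0, and the intervals of Id1, Id2, Tcf3 and Tcf4 include 0.

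Some B cell, NK and myeloid markers were higher in the libraries labelled Srsf1-cKO, all at low levels. Over all genes tested, 8.9% were called higher and 9.5% lower. The 10 B cell markers summed to 13.0 to 49.9 CPM in the libraries labelled Srsf1-cKO and 1.58 to 12.1 CPM in WT libraries, and 2 of 7 tested rose. The 9 NK and innate lymphoid markers summed to 23.3 to 63.2 CPM in the libraries labelled Srsf1-cKO and 13.2 to 16.9 CPM in WT libraries, with 3 of 5 tested higher and Ncr1 at 0 in all libraries. The 9 myeloid markers summed to 10.8 to 26.8 CPM in the libraries labelled Srsf1-cKO and 3.17 to 6.96 CPM in WT libraries, with 1 of 3 tested higher and Csf3r at 0. The 3 CD8 T cell markers summed to 16.9 to 22.9 CPM in the libraries labelled Srsf1-cKO and 24.6 to 42.5 CPM in WT libraries, with 0 called. The 10 plasmacytoid and dendritic markers summed to 659 to 856 CPM in the libraries labelled Srsf1-cKO and 955 to 1142 CPM in WT libraries, nearly all of it Irf8, which activated T cells also express. Irf8 fell (log2 fold change -0.48, edgeR adjusted p = 0.0452), 1 of the 2 genes tested, but was not called in FPKM (limma adjusted p = 0.0962). Siglech and Clec9a were at 0. The 5 measured gamma delta and NKT markers summed to 2.92 to 3.75 CPM in the libraries labelled Srsf1-cKO and 0.911 to 17.7 CPM in WT libraries, with 0 called. Which cells, T cells or others, gave this marker RNA was not tested. The part of any such cells in the differences of Id3, Tcf12 and the lists was not tested either.

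Levels of different genes can be compared only per length, so the makeup of the 2 families is given in FPKM. In the libraries labelled Srsf1-cKO the order was Id2 (88.0 ± 7.18 FPKM), Id3 (23.8 ± 4.41), Tcf12 (21.6 ± 2.62), Tcf3 (9.61 ± 1.73), Id1 (3.38 ± 0.939) and Tcf4 (1.99 ± 0.295). In WT libraries it was Id3 (100.8 ± 23.2 FPKM), Id2 (82.0 ± 16.7), Tcf12 (28.8 ± 2.77), Tcf3 (10.7 ± 2.95), Id1 (4.08 ± 1.24) and Tcf4 (1.98 ± 0.505). All are means ± SD over 3 libraries. Id3 and Tcf12 lay within their spread of each other in the libraries labelled Srsf1-cKO, and Id3 and Id2 in WT libraries. The other neighbours in each order were separated by more than their SDs, although in the libraries labelled Srsf1-cKO the lowest Id1 value (2.29 FPKM) lay just under the highest Tcf4 value (2.32 FPKM).

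By group mean, Id2 led the inhibitors in the libraries labelled Srsf1-cKO and Id3 led them in WT libraries. Id3 FPKM were 0.274, 0.225 and 0.309 of Id2 FPKM in the libraries labelled Srsf1-cKO, against 1.501, 0.733 and 1.66 in WT libraries. Id2 thus exceeded Id3 in every library labelled Srsf1-cKO and, among WT libraries, in replicate 2 alone. Id3 made up 20.5 ± 2.75% of the FPKM sum of Id1, Id2 and Id3 in the libraries labelled Srsf1-cKO and 53.7 ± 10.8% in WT libraries (SD, n = 3 each). That sum was 126.5, 105.6 and 113.4 FPKM in the libraries labelled Srsf1-cKO, against 192.5, 179.5 and 188.7 FPKM in WT libraries.

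Among the E protein genes, Tcf12 led in every library. It gave 58.0% to 68.4% of the FPKM sum of Tcf3, Tcf4 and Tcf12 in the libraries labelled Srsf1-cKO and 62.3% to 75.2% in WT libraries. The sum was 33.4, 34.2 and 31.99 FPKM in the libraries labelled Srsf1-cKO, against 37.7, 42.5 and 44.3 FPKM in WT libraries. Id mRNA exceeded E protein mRNA by 3.79, 3.09 and 3.54 times in the libraries labelled Srsf1-cKO, and by 5.10, 4.22 and 4.25 times in WT libraries. These ratios did not overlap, with means of 3.47 ± 0.355 in the libraries labelled Srsf1-cKO and 4.53 ± 0.499 in WT libraries (SD, n = 3 each). They are ratios of mRNA, and no test was made on such sums over chosen genes. The mean ratio in the libraries labelled Srsf1-cKO was 0.767 of that in WT libraries. From TMM-scaled counts, which are not scaled by length, the ratios averaged 0.814 ± 0.0678 in the libraries labelled Srsf1-cKO and 0.960 ± 0.0901 in WT libraries (SD, n = 3 each), or 0.847 of the WT mean, again without overlap.

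**Figure D3:**
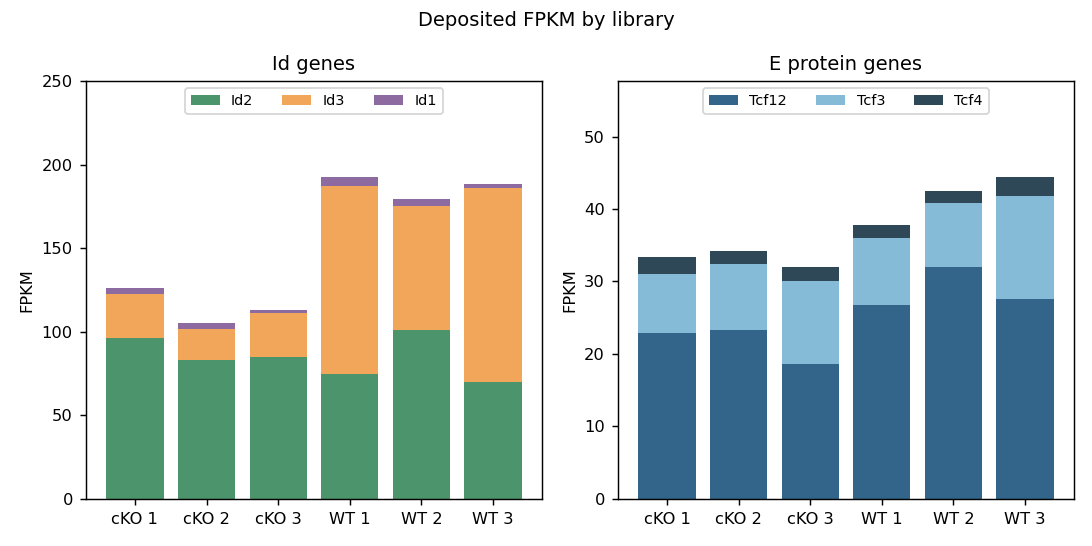
Deposited FPKM (vertical axes, from 0, different scales) of the Id genes and the E protein genes, stacked for each library, with those labelled Srsf1-cKO (cKO) left of WT. Id2 segments lie between 83.0 and 96.3 FPKM in the libraries labelled Srsf1-cKO and between 70.0 and 101.1 FPKM in WT libraries, while Id3 segments reach at most 26.3 FPKM in the libraries labelled Srsf1-cKO and at least 74.2 FPKM in WT libraries.

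Replicates also varied within a group. Among WT libraries, replicate 2 had the lowest Id3 and Tcf3 and the highest Id2 and Tcf12, and replicate 3 had the highest Tcf3 and Tcf4. Among the libraries labelled Srsf1-cKO, replicate 2 had the lowest Id3, Id2 and Tcf4, and replicate 3 the lowest Id1 and Tcf12. Across the 6 libraries the genes most like Id3, by Pearson's r of log2 CPM among 8015 genes, included Nipal1 (0.996) and Rpl35a (0.996). Those most like Tcf12 were Desi1 (0.994), Limk2 (0.994) and Crebrf (0.992). For Id2 they were Hint3 (0.991), Tmem64 (0.973) and Tgm2 (0.960), and for Id1 Rlf (0.999), Sap30 (0.994) and Poldip3 (0.992). For Tcf3 they were Mpp1, Ewsr1 and Pithd1 (0.995 each), and for Tcf4 Ss18 (0.988), S1pr2 (0.987) and Mtfr1l (0.951). With 6 libraries that share a genotype split and so many genes searched, such values describe these libraries only.

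Of 26 tested genes of the signals that lie upstream of Id genes, 7 fell and 0 rose, against 9.5% lower and 8.9% higher over all genes. The median log2 fold change of the list was -0.26, against 0.01 over all genes. Nab2, a corepressor of EGR factors that those factors induce, averaged 34.8 ± 10.1 CPM in the libraries labelled Srsf1-cKO and 149.5 ± 38.0 CPM in WT libraries (log2 fold change -2.10, SE 0.25, edgeR adjusted p = 0.00435). Egr1, the immediate early factor reported to link ERK to Id3, averaged 248 ± 66.2 CPM in the libraries labelled Srsf1-cKO and 484 ± 150.6 CPM in WT libraries (log2 fold change -0.96, edgeR adjusted p = 0.0362), with overlapping groups, and was not called in FPKM (limma adjusted p = 0.0650). Its relatives Egr2 (log2 fold change 0.15, adjusted p = 0.604) and Egr3 (-0.81, 0.122) were not called. In the BMP and TGF-beta arm, which induces Id genes in many cells, the receptor gene Bmpr2 (-0.89), the shared signal carrier Smad4 (-0.58), the inhibitory Smad7 (-0.88) and the ubiquitin ligase gene Smurf2 (-0.55) fell, with adjusted p of 0.0156 to 0.0417. The other tested genes of this arm were not called, with estimates from -0.60 (Smad3, adjusted p = 0.0594) to 1.19 (Acvr1, 0.0884). Nab1, another EGR corepressor gene, fell by 0.43 with an adjusted p just under the threshold. Nab1 (limma adjusted p = 0.110) and Smurf2 (0.0972) were not called in FPKM. Stat5a, the most abundant of the list, averaged 1052 ± 169 CPM in the libraries labelled Srsf1-cKO and 962 ± 124 CPM in WT libraries (adjusted p = 0.597). Egr1, Egr2, Egr3, Smurf2, Nab1, Smad3 and Acvr1 were chosen after their values were seen. Leaving out WT replicate 1 left 1 gene that fell, as did leaving out replicate 2 of the libraries labelled Srsf1-cKO. Leaving out WT replicate 2 left 4, and 1 rose when WT replicate 3 was left out.

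Of 16 genes described with high Id3 in T cells, Id3 and 4 others fell and 0 rose, against 9.5% lower and 8.9% higher over all genes. Id3 is itself a member of this list, which was chosen with earlier results of these data known, so the count is a description only. The median log2 fold change was -0.28. Tcf7, the gene of TCF1, averaged 379 ± 57.6 CPM in the libraries labelled Srsf1-cKO and 762 ± 14.5 CPM in WT libraries (log2 fold change -1.01, edgeR adjusted p = 0.00648). The homing receptor gene Ccr7 (-1.50, adjusted p = 0.00437), the proto-oncogene Myb (-2.25, 0.00912) and the T-box gene Eomes (-1.77, 0.00978), the last chosen after its value was seen, fell as well. Genes of the same list that were not called included Bcl6 (-0.28), Cxcr5 (-0.31), Slamf6 (0.29) and Bach2 (-0.16), also chosen after their values were seen, and Satb1, its most abundant member (0.37, adjusted p = 0.547). Without WT replicate 1, 3 of the list fell.

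Of 13 tested genes described with high Id2, 1 rose and 1 fell, a share near the 18.4% called over all genes, and the median log2 fold change was 0.13. Ifng, the gene of interferon gamma, averaged 72.8 ± 29.6 CPM in the libraries labelled Srsf1-cKO and 5.48 ± 5.01 CPM in WT libraries (log2 fold change 3.76, edgeR adjusted p = 0.00761), or 4.78 without WT replicate 3. Bhlhe40, a helix-loop-helix repressor, averaged 378 ± 80.6 CPM in the libraries labelled Srsf1-cKO and 768 ± 124 CPM in WT libraries (log2 fold change -1.02, adjusted p = 0.0113). Id2 itself and the effector genes Tbx21 (-0.0090) and Gzmb (0.13), these last a pair chosen after their values were seen, were not called. Il2ra, the most abundant member, was not called on counts (log2 fold change 0.37, edgeR adjusted p = 0.0641). In FPKM it was called (limma log2 difference 0.47, adjusted p = 0.0235). Estimates of the tested but uncalled genes ran from -0.79 (Il12rb2, edgeR adjusted p = 0.139) to 1.84 (Prf1, 0.0794). Havcr2 stood at 1.11 (0.0724). Il12rb2, Prf1 and Havcr2 were also chosen after their values were seen. With WT replicate 3 left out 4 rose, and with replicate 1 of the libraries labelled Srsf1-cKO left out 2 rose. The number that fell was 0 with WT replicate 1 or Srsf1-cKO replicate 2 left out, and 2 with Srsf1-cKO replicate 3 left out. DESeq2 called 4 of the list higher.

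Of 14 tested partners and cofactors of E proteins, 3 fell and 1 rose (median log2 fold change -0.10), where 18.4% of all genes were called, 9.5% lower. Ep300, an acetyltransferase coactivator of E proteins, averaged 109 ± 23.5 CPM in the libraries labelled Srsf1-cKO and 214 ± 35.5 CPM in WT libraries (log2 fold change -0.97, edgeR adjusted p = 0.0131). Ldb1, which bridges LMO and E protein complexes, averaged 77.8 ± 6.83 CPM in the libraries labelled Srsf1-cKO and 132 ± 7.91 CPM in WT libraries (log2 fold change -0.76, edgeR adjusted p = 0.00894). The acetyltransferase gene Kat2b fell (-0.74, adjusted p = 0.0257; not called in FPKM, limma adjusted p = 0.0877) and Ssbp4, of a family that binds LDB1, rose (0.66, 0.0203). Cbfb, the most abundant, was not called (-0.18, 0.314). The helix-loop-helix partner genes Tal1, Tal2, Lyl1, Ascl2 and Msc were too low to test, at means of 1.52 CPM or less in either group. When WT replicate 1 or Srsf1-cKO replicate 2 was left out, 0 of these fell and 0 rose. When Srsf1-cKO replicate 1 was left out, 0 rose.

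Of 19 tested genes listed as other factors of E-box or related DNA, 3 fell and 1 rose, a share near the 18.4% called over all genes. Their median log2 fold change was -0.24. The list was not limited to factors of the CAGCTG and CAGGTG letters marked in the upstream sequences. Besides Bhlhe40, Mxi1, a MAX partner that opposes MYC, fell (53.4 ± 13.7 CPM in the libraries labelled Srsf1-cKO and 127.0 ± 38.0 CPM in WT libraries, edgeR adjusted p = 0.0151). Tfe3, a lysosomal and immune regulator, fell less (log2 fold change -0.50, adjusted p = 0.0422) and lost its call with library-size scaling, with no low-count filter, in FPKM, and with any 1 library left out. Snai3 rose at a low level (2.63 ± 0.126 CPM in the libraries labelled Srsf1-cKO and 0.992 ± 0.271 CPM in WT libraries, adjusted p = 0.0287), but was not called by DESeq2 or with any 1 library left out other than WT replicate 2. The zinc finger repressors Zeb1 (0.23) and Zeb2 (0.43), chosen after their values were seen, and Hif1a, the most abundant (0.17, adjusted p = 0.648), were not called. With WT replicate 1 or Srsf1-cKO replicate 2 left out, 0 of the list rose and 0 fell. With Srsf1-cKO replicate 1 or 3 left out 0 rose, and with WT replicate 2 left out 2 rose.

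Of 18 tested genes reported as E protein targets in lymphocytes, 3 rose and 2 fell (median log2 fold change -0.15), where 18.4% of all genes were called, 8.9% higher and 9.5% lower. The regulatory T cell factor gene Foxp3 averaged 31.3 ± 8.50 CPM in the libraries labelled Srsf1-cKO and 10.7 ± 1.96 CPM in WT libraries (log2 fold change 1.55, edgeR adjusted p = 0.00761). The type 2 helper factor gene Gata3 (1.15, adjusted p = 0.0138) and the cytokine signalling inhibitor gene Socs3 (0.98, 0.0138) rose too. Notch3 fell at a low level (0.354 ± 0.177 CPM in the libraries labelled Srsf1-cKO and 2.38 ± 0.154 CPM in WT libraries, adjusted p = 0.00897), as did Foxo3 (log2 fold change -0.60, 0.0373), chosen after its value was seen and not called in FPKM (limma adjusted p = 0.0928). Cd4, the most abundant, was not called (-0.25, 0.251). The thymic targets Rag2 and Ptcra, chosen after their values were seen, had 0 counts in all libraries. With WT replicate 1 left out, 0 of the list rose and 0 fell. With Srsf1-cKO replicate 2 left out 0 fell, and with replicate 1 or 3 left out 1 fell. DESeq2 called 5 of the list higher.

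Among 18 genes that control the turnover of Id and E proteins, 2 rose and 3 fell (median log2 fold change 0.07), where 18.4% of all genes were called. Usp1, the deubiquitinase gene reported to stabilize Id proteins, averaged 301 ± 22.8 CPM in the libraries labelled Srsf1-cKO and 195 ± 14.0 CPM in WT libraries (log2 fold change 0.63, edgeR adjusted p = 0.0130). Its partner Wdr48 was not called (0.15, 0.585; chosen after its value was seen). Skp2, an F-box gene reported in E2A degradation, rose (0.76, 0.0432; chosen after its value was seen). The chaperone gene Hspa8, the most abundant of the list, fell (-0.68, 0.0117). Cdc27, of the anaphase-promoting complex, fell (-0.47, 0.0306), but lost its call with library-size scaling (0.0646), in FPKM (limma, 0.0845), and with WT replicate 1 or any 1 library labelled Srsf1-cKO left out. Leaving out WT replicate 1 or Srsf1-cKO replicate 2 left 0 that rose and 0 that fell. Leaving out WT replicate 2 or 3, or Srsf1-cKO replicate 3, left 1 that rose. With library-size scaling 5 rose and 2 fell.

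**Figure D4:**
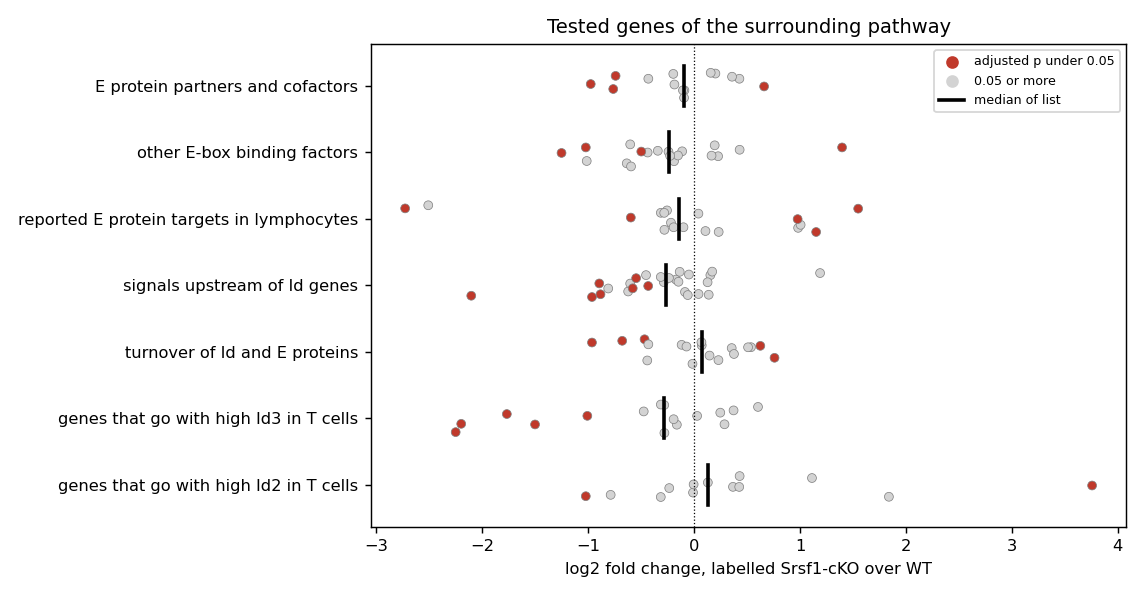
Log2 fold change, libraries labelled Srsf1-cKO over WT (horizontal axis), of the tested genes of 7 lists around the Id and E protein genes, red where the adjusted p is under 0.05, with the list median as a black bar. Medians lie between -0.28 (genes that go with high Id3) and 0.13 (genes that go with high Id2), and some genes stand in 2 lists.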

How the data were processed

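RNA-seq of 6 libraries, 3 labelled Srsf1-cKO and 3 WT, was analysed from 2 deposited tables. The authors deposited whole-number read counts per gene symbol without normalization. A second deposited table, named as counts, holds FPKM by its values. STAR (2.4.2a, per the file headers), Cufflinks and the mm9 build are named per the submitters' processing notes. No source used here gives the counting program, annotation or strand setting. Dates stood in place of 27 gene names.

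The main test was edgeR 4.0.16 (R 4.3.3), two-sided quasi-likelihood on the counts, after filterByExpr and TMM scaling. The model held genotype alone, and p-values were adjusted by Benjamini-Hochberg over 10454 genes. Genes under an adjusted p of 0.05 count as called, and only these are said to have risen or fallen. FPKM were tested with limma 3.58.1 (trend) on log2(FPKM + 1) where at least 3 libraries had 1 or more, a scale that understates changes of low genes. Both fits were run on simulated counts, with no outcome given here. For limma these were scaled to CPM and not by transcript length, so its use on FPKM was not simulated. Alternatives changed the scaling (RLE, upper quartile, library size), the filter, the tool (DESeq2 1.42.0, voom, voom with weights per sample), the model (a replicate block) or the libraries (each left out once).

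The design text gives 3 mice of each genotype, and counts of replicates differed beyond sampling noise in every pair. The genes named are the 6, Srsf1, up to 4 called genes per list with the smallest adjusted p, its most abundant tested gene and, per gene, the 3 most alike; a few genes that this rule names are not reported here. The 6 genes and all lists were chosen with earlier results of these data known. Protein sequences were not used here.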

Additional observations from a re-analysis of the deposited data

How the results depend on the processing

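Id3 kept its direction and its call under all 16 alternatives to the count-based fit, the FPKM fit among them, and all 9 to the FPKM fit, while Id1, Id2, Tcf3 and Tcf4 were called under none. Tcf12 lost its call with library-size scaling (log2 fold change -0.41, edgeR adjusted p = 0.0607) and in FPKM (-0.40, limma adjusted p = 0.0792), where it was called under 0 of 9 alternatives. With 1 library left out its log2 fold change ranged from -0.57 to -0.41, and the call held only without WT replicate 3. The cause was not tested. The number of genes called, 1923, was 4355 with sample weights and ran from 195 (without WT replicate 1) to 1989 (without WT replicate 2). It was 234 without Srsf1-cKO replicate 2. In FPKM the number called was 1801, 1146 with no low-value filter, and 64 (without Srsf1-cKO replicate 2) to 1852 (without WT replicate 2) with 1 library left out. Library-size scaling moved the share of calls that were higher to 64.1%, against 48.4%. The difference in the Id over E protein ratio was -1.05 in FPKM and -0.147 on TMM-scaled counts, whose ratios are smaller throughout; relative to the WT mean, the ratio was 0.767 and 0.847. Of 31 other genes named from the rule, 24 were called with all libraries, 20 lost their call with WT replicate 1 left out and 17 with Srsf1-cKO replicate 2 left out. Replicate numbers were not shown to pair the samples (correlations of same-numbered deviations 0.222, 0.0128 and 0.272), and with a replicate block 2270 genes were called, with Id3 at -2.19 and Tcf12 at -0.51, both called. Id1 had the fewest counts of the 6 genes, 22 to 52 a library.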
